A study of Mus musculus with 5 samples.

Results

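The Lef1 locus was taken as all peaks that met chromosome 3, 130750001 to 130980000 (mm9), a window of 230 kb around the gene, whose approximate extent is 130.81 to 130.93 Mb. It held 170 of the 332881 peaks of 5 ATAC-seq peak lists, and 93 of the 157434 regions obtained by merging the lists. A region is a stretch of DNA where peaks of one or more lists overlap by at least 1 bp. The locus was chosen from region counts of these same libraries, in which it stood among the places with the fewest regions in SOX13hi relative to SOX13lo cells. Its counts are therefore a description, and no test is given for them.

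ATAC-seq maps open chromatin by letting a transposase cut and tag accessible DNA. The Sox13tg SOX13hi, SOX13hi, Sox13tg SOX13lo and SOX13lo libraries came from γδ T thymocytes sorted as CD24+ cells with high, or low to absent, CFP fluorescence. All 4 came from C57BL/6 animals with the genotype TCRbeta KO and Sox13 ECFP KI/+, in which CFP reports Sox13, and the Sox13tg animals also carried a Sox13 transgene. The fifth library came from DP (double-positive) thymocytes of wild-type C57BL/6 animals, so cell type and genotype differ together between γδ and DP. The sources used here do not give the promoter of the transgene, the age of the animals or any pooling. Each group had 1 library of 40000 sorted cells, so no value has a replicate check and every difference below is between libraries. The authors' lists held 63932 (Sox13tg SOX13hi), 54435 (SOX13hi), 33155 (Sox13tg SOX13lo), 67482 (SOX13lo) and 113877 (DP) peaks. Read depth is unknown, and depth and the number of open sites cannot be told apart in the length of a list. The name field inside the SOX13lo list reads SOX13hi-ATAC, against its label, which was followed. The labels give Sox13tg SOX13hi and DP the same index. Labelled cell types were not checked against marker genes, because no mm9 annotation was at hand.

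LEF1 is a transcription factor with an HMG box, a DNA-binding domain that bends the DNA. Together with its relative TCF1, the product of Tcf7, it recruits β-catenin to target genes in Wnt signalling, and the pair act partly in place of each other in developing thymocytes, with a known role in αβ T cell maturation. SOX13 also has an HMG box and has been reported to interact with TCF1 in mouse thymocytes.

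RefSeq lists 4 starts for mouse Lef1 on GRCm38.p6, on the + strand. The most upstream and the most downstream, 45997 bases further on, are shown. Each sequence has 300 bases and ends shortly after the start it belongs to. Capitals mark CTTTGA or CTTTGT, core letters bound by TCF/LEF factors, and ACAAT, core letters bound by SOX factors, on either strand. No 2 of the marked matches overlap.
Lef1 most upstream start, chr3:131110047-131110346, GRCm38.p6: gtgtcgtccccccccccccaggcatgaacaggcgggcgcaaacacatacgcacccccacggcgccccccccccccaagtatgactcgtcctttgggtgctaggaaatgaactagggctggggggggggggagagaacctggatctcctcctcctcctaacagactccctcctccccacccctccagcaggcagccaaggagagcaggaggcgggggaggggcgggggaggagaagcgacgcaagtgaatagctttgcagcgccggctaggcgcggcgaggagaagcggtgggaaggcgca
Lef1 most downstream start, chr3:131156044-131156343, GRCm38.p6: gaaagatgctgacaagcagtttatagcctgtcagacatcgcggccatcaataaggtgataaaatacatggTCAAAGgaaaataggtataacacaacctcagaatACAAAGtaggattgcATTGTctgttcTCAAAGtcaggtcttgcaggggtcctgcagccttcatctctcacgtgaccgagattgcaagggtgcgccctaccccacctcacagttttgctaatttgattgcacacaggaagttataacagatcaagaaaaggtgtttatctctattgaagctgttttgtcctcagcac

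The upstream sequence is rich in G and C (67.3%, against a median of 52.7% over 32817 promoters of the same length) and held no match to either set of letters. The downstream one had a GC content of 43.7%, with 3 matches for TCF/LEF and 1 for SOX. The sequences of the starts between them, not shown, held no match to either set. Of all 32817 promoters, 31.2% held a TCF/LEF match and 31.0% a SOX match. The peaks are on mm9 and these sequences on GRCm38, so the peaks were not placed on them.

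The libraries differed in peaks at the locus, as they did in the length of their lists. Sox13tg SOX13hi had 24 peaks in 17 regions and SOX13hi had 14 peaks in 12 regions. Sox13tg SOX13lo had 11 peaks in 9 regions, SOX13lo had 41 peaks in 37 regions, and DP had 80 peaks in 77 regions. To divide out the length of the lists, locus regions were counted per 1000 regions of the same library, with exact Poisson 95% intervals that cover counting error only. This rate was 0.320 (0.187 to 0.513) in Sox13tg SOX13hi, 0.273 (0.141 to 0.476) in SOX13hi and 0.363 (0.166 to 0.689) in Sox13tg SOX13lo. It was 0.630 (0.444 to 0.868) in SOX13lo and 0.698 (0.551 to 0.873) in DP. From low to high the order was SOX13hi, Sox13tg SOX13hi, Sox13tg SOX13lo, SOX13lo and DP, and neighbours in it had overlapping intervals throughout. SOX13hi was not the lowest under 3 other settings. In the upper 50% of each list by score the rate was 0.278 in Sox13tg SOX13hi, 0.282 in SOX13hi and 0.274 in Sox13tg SOX13lo. Without peaks of 30 bp or less it was 0.271, 0.317 and 0.294, and without the largest cluster 0.207, 0.204 and 0.201, in the same order of libraries. In the gene extent alone SOX13lo (0.460) was just above DP (0.453). Over the whole window and all peaks, the intervals of SOX13hi and SOX13lo also overlapped, by a narrow margin. There the intervals of Sox13tg SOX13hi and of SOX13hi lay below that of DP. Without peaks of 30 bp or less they overlapped it, at 0.117 to 0.535 in Sox13tg SOX13hi and 0.137 to 0.625 in SOX13hi, against 0.487 to 0.906 in DP.

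**Figure D1:**
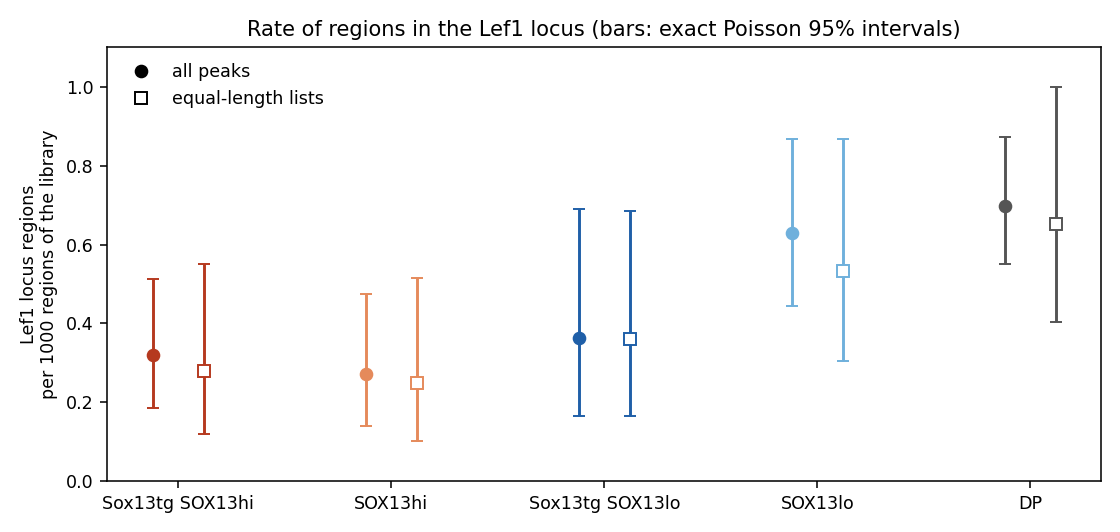
Lef1 locus regions per 1000 regions of the library (vertical axis) in the 5 libraries, from all peaks (filled circles) and from equal-length lists (open squares), with exact Poisson 95% intervals. The 2 transgenic libraries and SOX13hi (0.273 to 0.363) stand below SOX13lo (0.630) and DP (0.698), and the equal-length values keep the order of the 5.

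The same order was seen when each list was limited to its 33155 highest-scoring peaks, the length of the shortest list. The rate was then 0.279 in Sox13tg SOX13hi (8 regions), 0.250 in SOX13hi (7), 0.361 in Sox13tg SOX13lo (9), 0.534 in SOX13lo (16) and 0.653 in DP (21). The intervals of Sox13tg SOX13hi (0.12 to 0.55) and SOX13hi (0.101 to 0.516) then overlapped that of DP (0.404 to 0.999). The length of DNA under locus peaks was 1832 bp in Sox13tg SOX13hi, 1618 bp in SOX13hi, 621 bp in Sox13tg SOX13lo, 4335 bp in SOX13lo and 7436 bp in DP. Per Mb of DNA under all peaks of the same list, this was 312 bp, 309 bp, 234 bp, 608 bp and 629 bp, in that order. By this measure Sox13tg SOX13lo was the lowest, and SOX13lo and DP again had the highest values.

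Scores of the authors' lists were used only to place a peak within its own list, as the percentage of that list's peaks with a lower score, counting those tied by 50%. The median percentile of locus peaks was 45.4 in Sox13tg SOX13hi, 62.3 in SOX13hi, 34.9 in Sox13tg SOX13lo, 34.6 in SOX13lo and 48.4 in DP. The SOX13hi median had an interval of 23.1 to 87.8, from the ranks of its 14 peaks. Without the largest cluster it was 48.5, against 55.2 in Sox13tg SOX13hi and 57.3 in Sox13tg SOX13lo, so the order of the medians rested on that cluster. In the upper 25% of their lists lay 3 of 24 locus peaks in Sox13tg SOX13hi, 6 of 14 in SOX13hi, 2 of 11 in Sox13tg SOX13lo, 7 of 41 in SOX13lo and 18 of 80 in DP. Peaks of 30 bp or less made up 54.2% of the locus peaks in Sox13tg SOX13hi, 35.7% in SOX13hi, 63.6% in Sox13tg SOX13lo, 56.1% in SOX13lo and 45% in DP. In the whole lists these shares were 46.6%, 45.5%, 50.2%, 43.6% and 42.1%, in the same order.

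**Figure D2:**
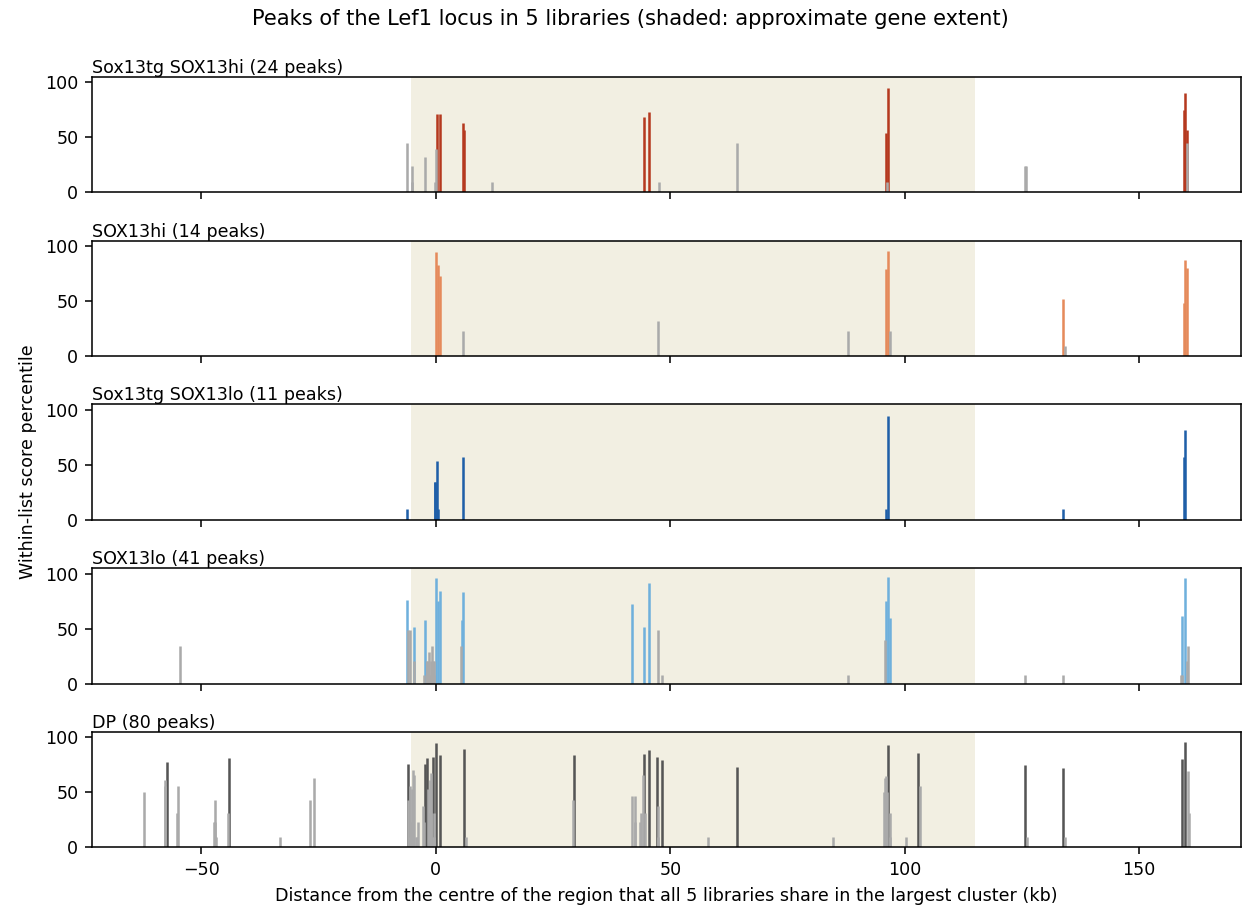
Peaks of the Lef1 locus in the 5 libraries. The horizontal axis is the distance in kb from the centre of the region that all 5 libraries share in the largest cluster, and the vertical axis is the within-list score percentile. Coloured lines are peaks kept in the equal-length lists, grey lines are the others, and shading marks the approximate gene extent. Peaks recur at 4 places in all libraries, and the stretch well before the gene is almost empty in the γδ libraries and holds scattered peaks in DP.

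Peaks within 1 kb of each other were joined into clusters, which gave 24 in the locus. Sox13tg SOX13hi had a peak in 9 of them, SOX13hi in 7, Sox13tg SOX13lo in 5, SOX13lo in 11 and DP in 22. In 4 clusters every library had a peak, and 11 were held by DP alone. The 4 common clusters held 17 of the 24 peaks of Sox13tg SOX13hi, 10 of the 14 of SOX13hi, 10 of the 11 of Sox13tg SOX13lo, 32 of the 41 of SOX13lo and 40 of the 80 of DP. Within the clusters, 5 regions were held by all 5 libraries, which is 5.38% of the locus regions, against 9.45% of all regions of the genome.

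**Figure D3:**
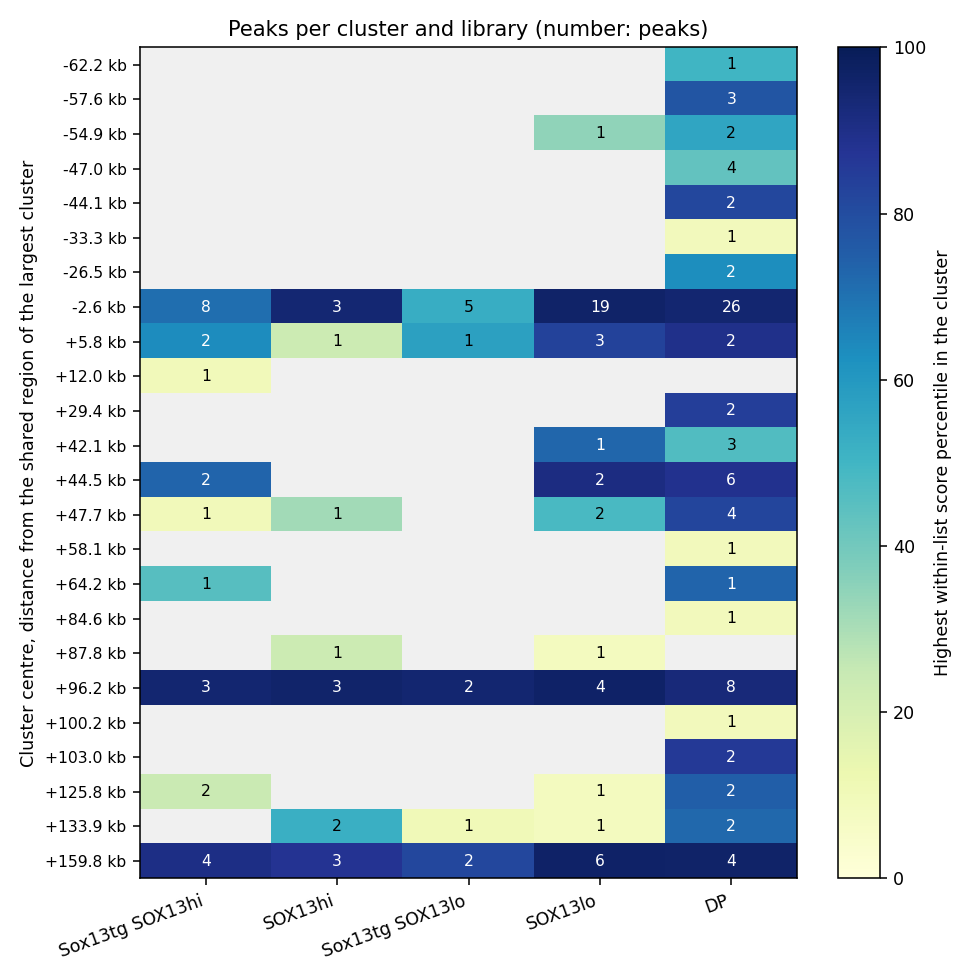
Peaks per cluster (rows, by distance in kb of the cluster centre from the shared region of the largest cluster) and library (columns). Numbers are peaks, and colour is the highest within-list score percentile among them. Grey cells have no peak. Rows with a number in all 5 columns are the 4 common clusters, and 11 rows have a number in the DP column only.

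The largest cluster lay at the 5′ edge of the gene extent, at 130808920 to 130816216, and the libraries differed in peak number there. It held 8 peaks in Sox13tg SOX13hi, 3 in SOX13hi, 5 in Sox13tg SOX13lo, 19 in SOX13lo and 26 in DP. These covered 314 bp, 431 bp, 286 bp, 1539 bp and 2423 bp, in the same order. All 3 SOX13hi peaks lay in the last part of the cluster, from 130814963 on. In that part Sox13tg SOX13hi had 4 peaks, Sox13tg SOX13lo 3, SOX13lo 3 and DP 2, so the libraries held similar numbers. The length covered there differed: 200 bp in Sox13tg SOX13hi, 431 bp in SOX13hi, 197 bp in Sox13tg SOX13lo, 594 bp in SOX13lo and 465 bp in DP. Before this part, Sox13tg SOX13hi had 4 peaks over 114 bp, SOX13hi had 0 and Sox13tg SOX13lo had 2 over 89 bp. SOX13lo had 16 peaks there, over 945 bp, and DP had 24, over 1958 bp. In equal-length lists the numbers before 130814963 were 0 in Sox13tg SOX13hi, 0 in SOX13hi, 2 in Sox13tg SOX13lo, 3 in SOX13lo and 4 in DP. The boundary was set by the SOX13hi peaks after they were seen.

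One region of this cluster, 130814963 to 130815334, was held by all 5 libraries. Its highest peak was at percentile 71.0 in Sox13tg SOX13hi and 94.3 in SOX13hi, and at 34.9 in Sox13tg SOX13lo, 96.4 in SOX13lo and 94.7 in DP. These are places in lists of different lengths. Peaks of different lists in a region need not overlap each other: the Sox13tg SOX13lo peak ended at 130815041, before the SOX13lo peak began at 130815171. The adjoining region at 130815358 to 130815728 was held by SOX13hi (83.2), Sox13tg SOX13lo (53.1) and SOX13lo (74.8), and by neither Sox13tg SOX13hi nor DP. The region at 130815959 to 130816216 was held by Sox13tg SOX13hi (71.0), SOX13hi (72.5), SOX13lo (84.5) and DP (84.3), and not by Sox13tg SOX13lo. At the other end, the region at 130808920 to 130809177 was at 45.4 in Sox13tg SOX13hi, 10.2 in Sox13tg SOX13lo, 76.0 in SOX13lo and 75.4 in DP, and was absent from SOX13hi.

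**Figure D4:**
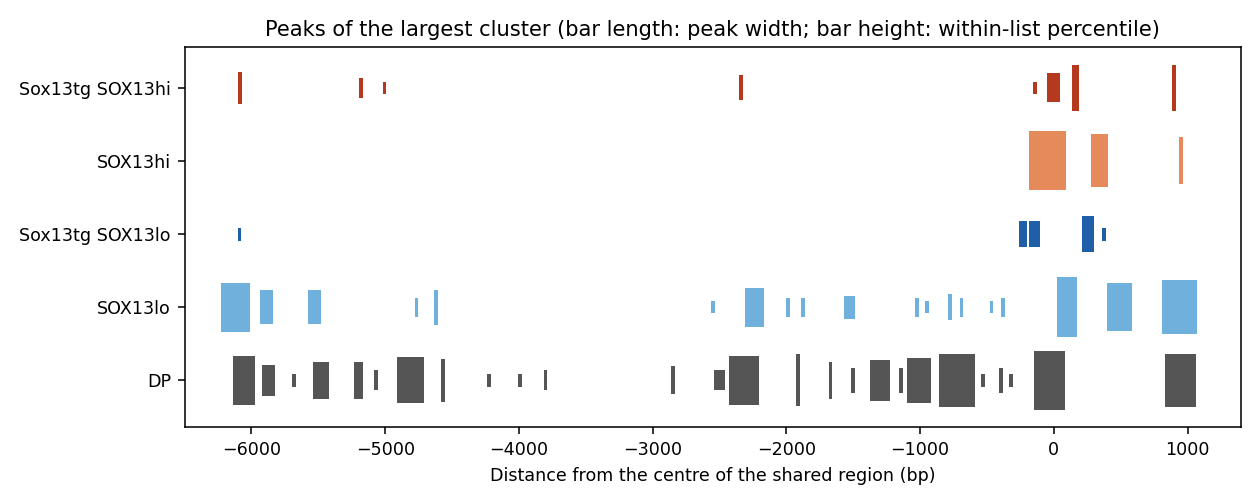
Peaks of the largest cluster in the 5 libraries, by distance in bp from the centre of the region that all of them share. Bar length is the width of a peak and bar height its within-list percentile. The 3 SOX13hi peaks are all at the right, where every library has peaks. To the left of them lie 4 peaks of Sox13tg SOX13hi, 2 of Sox13tg SOX13lo, 16 of SOX13lo and 24 of DP.

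A second common cluster followed at 130820461 to 130821472. Its shared region, 130820755 to 130821102, was at percentile 63.4 in Sox13tg SOX13hi, 23.1 in SOX13hi, 57.3 in Sox13tg SOX13lo, 83.1 in SOX13lo and 89.1 in DP. SOX13hi thus had its peak there low in its list. SOX13lo held a further region at 130820569 to 130820677 (57.8) that no other library had.

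Inside the gene extent, the cluster at 130858705 to 130860619 separated the libraries by presence. Its main region, 130860412 to 130860619, was at percentile 73.2 in Sox13tg SOX13hi, 91.2 in SOX13lo and 88.4 in DP, and SOX13hi and Sox13tg SOX13lo had no peak in it. The region at 130859392 to 130859536 was held by the same 3 libraries, at 68.4 in Sox13tg SOX13hi, 51.3 in SOX13lo and 84.9 in DP. Close by, the region at 130856933 to 130857110 was held by SOX13lo (72.8) and DP (46.8) alone. The region at 130862481 to 130862626 was at 31.6 in SOX13hi, 48.3 in SOX13lo and 37.9 in DP.

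Further into the gene extent, the cluster at 130910586 to 130912055 held the shared region with the narrowest range of percentiles. That region, 130911253 to 130911841, was at percentile 94.7 in Sox13tg SOX13hi, 95.9 in SOX13hi, 94.9 in Sox13tg SOX13lo, 96.8 in SOX13lo and 92.9 in DP. In each of the 4 γδ libraries it was the highest region of the locus, and in DP it ranked after 2 others. The neighbouring shared region, 130910941 to 130911128, was at 53.7 in Sox13tg SOX13hi, 79.5 in SOX13hi, 10.2 in Sox13tg SOX13lo, 74.8 in SOX13lo and 64.7 in DP.

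The fourth common cluster lay past the gene extent, at 130974077 to 130975738. Its shared region at 130974501 to 130975544 was at percentile 90.4 in Sox13tg SOX13hi, 87.8 in SOX13hi, 81.4 in Sox13tg SOX13lo, 96.5 in SOX13lo and 96.2 in DP. The widest locus peak of SOX13hi (315 bp), Sox13tg SOX13lo (193 bp), SOX13lo (704 bp) and DP (845 bp) lay in it, and that of Sox13tg SOX13hi (405 bp) did not. In the gene order of GRCm38 the neighbour on this side of Lef1 is Hadh, which encodes a mitochondrial enzyme of fatty acid oxidation, and the neighbour on the other side is the long non-coding RNA gene Gm36603. Whether peaks here belong to Lef1 or to a neighbour was not tested. Between the gene and this cluster, the region at 130948744 to 130948938 was at 52.1 in SOX13hi, 10.2 in Sox13tg SOX13lo, 8.05 in SOX13lo and 72.4 in DP, and was the highest SOX13hi region of the locus outside the common clusters.

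SOX13hi cells were compared with SOX13lo cells to see how chromatin at Lef1 differs with Sox13 reporter level. Of the 12 SOX13hi regions, 11 (91.7%) were also held by SOX13lo, against 67.0% of all SOX13hi regions. With a reciprocal overlap of 50%, 2 of the 14 SOX13hi peaks met a SOX13lo peak. Of the 38 regions of either library, SOX13hi held 1 that SOX13lo lacked (130949354 to 130949389, at percentile 9.14, also held by DP), and SOX13lo held 26 that SOX13hi lacked. Over the genome 19.8% of the regions of either library were held by SOX13hi and not SOX13lo, and 39.9% by SOX13lo and not SOX13hi. The locus was chosen on this contrast, and nothing is read from the differences from these shares. Of the 26 regions, 14 lay in the largest cluster, 17 were also held by DP, 5 by Sox13tg SOX13hi and 1 by Sox13tg SOX13lo, and 9 by no other library. The share also in DP was 65.4%, against 39.1% of such regions over the genome. This share was not particular to them: of all locus regions, 83.3% of those in SOX13hi and 70.3% of those in SOX13lo were also in DP. Over the genome these shares were 67.2% and 61.8%. In equal-length lists SOX13hi held 1 and SOX13lo 10 of 17 regions that the other lacked, against 21.7% and 27.0% of all regions.

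The rate of locus regions in SOX13hi was 0.433 times that in SOX13lo (0.205 to 0.848, counting error only). In equal-length lists the ratio was 0.469 (0.163 to 1.21), without the largest cluster 0.600 (0.241 to 1.38) and without peaks of 30 bp or less 0.637 (0.238 to 1.56). With peaks joined over 150 bp it was 0.622 (0.246 to 1.46), and over 1 kb 0.744 (0.245 to 2.10). Since the locus was chosen for this ratio, the intervals give the counting precision alone and are no test of it. The genome was divided into windows of 230 kb, and 161 other windows held at least as many regions as the locus in both libraries together (49). On the log2 scale, with 0.5 added to each count, the ratio of SOX13hi to SOX13lo was -1.17 at the locus, and the lowest of these windows was at -0.86, with a median of -0.04. The locus was chosen for this low ratio, and its window was drawn around the gene while the others lay on a fixed grid. With equal-length lists the locus was at -1.04, and 2 of 423 windows were lower.

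**Figure D5:**
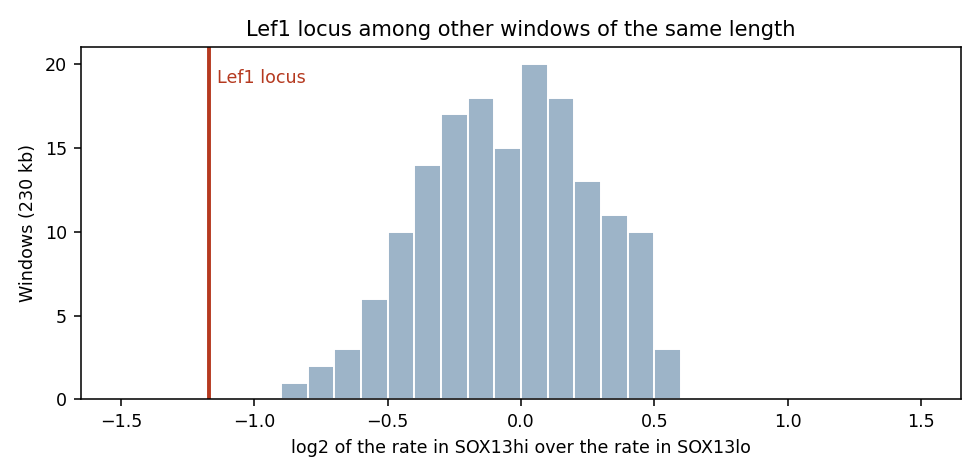
Number of 230 kb windows (vertical axis) by the log2 ratio of the SOX13hi rate to the SOX13lo rate (horizontal axis), for the 161 windows with at least 49 regions in both libraries together. The red line is the Lef1 locus, at -1.17, to the left of the lowest window (-0.86).

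The transgenic fractions were compared in the same way. The locus was chosen on the contrast without the transgene, so the size of that contrast is not ranked against this one. Sox13tg SOX13hi held 11 of the 20 regions of either transgenic library that Sox13tg SOX13lo lacked, against 57.8% over the genome, and Sox13tg SOX13lo held 3 that Sox13tg SOX13hi lacked, against 9.64%. These shares of 55.0% and 15.0% were near those of all regions. The rate ratio was 0.883 (0.372 to 2.25, counting error only), and it lay above 1 under 6 of 12 other settings, so no direction is given. In equal-length lists the numbers were 3 and 4 of 12 regions, against 32.8% and 22.8%. The highest region that Sox13tg SOX13lo lacked was the one at 130860412, and the highest that Sox13tg SOX13hi lacked was that at 130815358.

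Transgenic and non-transgenic cells of one fraction were compared to see whether the Sox13 transgene goes with a change at Lef1. For SOX13hi cells, Sox13tg SOX13hi held 11 and SOX13hi 6 of 23 regions that the other lacked, and 6 were common. The genome-wide shares were 34.8% and 21.3%. The rate ratio was 1.17 (0.529 to 2.70), and it was 0.856 without peaks of 30 bp or less, so its direction depended on the setting. Without the largest cluster it was 1.01. The choice of the locus favoured a low count in SOX13hi, the reference here, so this ratio is no test of the transgene. Of the 11 regions that Sox13tg SOX13hi held and SOX13hi lacked, 5 were also in SOX13lo and 7 in DP, against 27.6% and 39.9% of such regions over the genome. Of the 6 that SOX13hi held and Sox13tg SOX13hi lacked, 5 were in SOX13lo and 4 in DP, against 31.0% and 36.0%, so both sides shared most of their regions with DP. In equal-length lists the numbers were 3 and 2 of 10 regions, against 23.6% and 21.6%, and all 3 held by Sox13tg SOX13hi were also in SOX13lo and in DP, as were 31.2% and 34.5% of such regions over the genome. The 6 regions on the SOX13hi side were led by 130815358 to 130815728 (83.2), 130948744 to 130948938 (52.1) and 130862481 to 130862626 (31.6).

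For SOX13lo cells, Sox13tg SOX13lo held 1 and SOX13lo 29 of 38 regions that the other lacked, against 9.23% and 61.7% over the genome. The 1 region was 130814887 to 130814947, at percentile 34.9. The rate ratio of Sox13tg SOX13lo to SOX13lo was 0.576 (0.244 to 1.21), and the ratio was below 1 in all 12 other settings (0.468 to 0.808). The choice of the locus favoured a high count in SOX13lo, the reference here, so this direction is no test of the transgene. The count of Sox13tg SOX13lo rests on 9 regions, so a difference of this size was not detectable beyond counting error. In equal-length lists the numbers were 2 and 9 of 18 regions, against 22.5% and 35.5%. The regions of SOX13lo that Sox13tg SOX13lo lacked were led by 130860412 to 130860619 (91.2), 130815959 to 130816216 (84.5) and 130856933 to 130857110 (72.8).

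γδ cells were set against DP cells as the αβ lineage stage at hand. Of the 93 locus regions, 16 were held by a γδ library and not by DP, and 48 by DP and no γδ library. Over the genome these shares were 29.9% and 40.3%. In equal-length lists they were 7 and 10 of 28 regions, against 45.3% and 14.5%. The mean rate of the 4 γδ libraries was 0.568 times the DP rate (0.409 to 0.788, counting error only), and 0.456 times without SOX13lo. With peaks joined within 1 kb the ratio of the 4 libraries to DP was 0.634, and its interval included 1 (0.366 to 1.1). The 16 regions were mostly low, with a median best percentile of 21.8, and 14 were held by 1 γδ library. The highest were 130815358 to 130815728 (83.2 in SOX13hi), 130820569 to 130820677 (57.8 in SOX13lo) and 130810514 to 130810541 (51.3 in SOX13lo). The 48 DP regions had a median DP percentile of 31.3, against 72.4 for the 29 that DP shared with a γδ library.

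Some DP regions without a γδ counterpart were high in the DP list. That at 130917766 to 130918019 was at percentile 85.9, that at 130844570 to 130844693 at 84.0 and that at 130862304 to 130862332 at 82.4. In the 60 kb before the gene extent, counted by region centre, there were 2 regions in Sox13tg SOX13hi, 0 in SOX13hi (Poisson upper bound 3.69), 1 in Sox13tg SOX13lo and 4 in SOX13lo, against 20 in DP (12.2 to 30.9). In equal-length lists these numbers were 0, 0, 1, 1 and 3, in the same order, with overlapping intervals. Inside the gene extent of 120 kb the numbers were 12 in Sox13tg SOX13hi, 9 in SOX13hi, 6 in Sox13tg SOX13lo, 27 in SOX13lo and 50 in DP. In the 50 kb after it they were 3, 3, 2, 6 and 7, in the same order of libraries. SOX13lo and DP thus had nearly the same rate in the gene extent (0.460 and 0.453 per 1000 regions). Before it SOX13lo had 0.0681 and DP 0.181, and the SOX13lo value rests on 4 regions (1.09 to 10.2). In both libraries some of the regions before the gene extent lay in the largest cluster, which begins at 130808920.

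The stretches on both sides of the window were counted in the same way. In the 230 kb before the window there were 22 regions in Sox13tg SOX13hi, 20 in SOX13hi, 8 in Sox13tg SOX13lo, 27 in SOX13lo and 74 in DP. The rate in SOX13hi (0.454) was there close to that in SOX13lo (0.460). In the 230 kb after it there were 9, 5, 3, 14 and 11 regions, in the same order. The rate of SOX13hi was 0.114 there, against 0.238 in SOX13lo and 0.0997 in DP. In equal-length lists the rates before the window were 0.572 in SOX13hi (16 regions, 9.15 to 26) and 0.434 in SOX13lo (13 regions, 6.92 to 22.2), with overlapping intervals. After the window both libraries held 4 regions, at rates of 0.143 in SOX13hi and 0.133 in SOX13lo. At the edges of the window, the nearest region outside was 19.9 kb before it, held by DP at percentile 9.03, and 8.96 kb after it, held by SOX13lo and DP with a best percentile of 44.4. The regions just inside were held by DP alone, at 50.1 and 31.3.

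Among 7480 other windows of 230 kb, 90.1% held fewer regions than the locus in Sox13tg SOX13hi, 84.8% in SOX13hi and 91.1% in Sox13tg SOX13lo. The share was 99.5% in SOX13lo and 99.3% in DP. The locus thus held more regions than most windows in every library. In equal-length lists, among 6581 windows, the share was 81.6% in Sox13tg SOX13hi, 77.3% in SOX13hi and 89.7% in Sox13tg SOX13lo. It was 97.8% in SOX13lo and 98.6% in DP. The locus was chosen for few regions in SOX13hi relative to SOX13lo, and its window was drawn around the gene. Nothing is therefore read from the differences between these shares. The windows with the most similar rates over the 5 libraries, by Euclidean distance of the log2 rates, were on chromosome 15 at 72910001 to 73140000 (distance 0.327), chromosome 12 at 114080001 to 114310000 (0.417) and chromosome 7 at 149500001 to 149730000 (0.586). The nearest of them held 18 regions in Sox13tg SOX13hi, 13 in SOX13hi, 9 in Sox13tg SOX13lo, 31 in SOX13lo and 69 in DP. In equal-length lists 3 different windows were nearest, led by chromosome 15 at 96370001 to 96600000 (0.239). No gene names are given for these windows.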

How the data were processed

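Per the submitters' processing notes the coordinates are on mm9. For every library the authors deposited a headerless list of peaks with position, name and score, the score being a whole number. The sources used here do not give what the score counts, nor the aligner, the peak caller, its threshold or the read filters. Within a list the deposited score ranked or filtered peaks, and it served no other use. With 1 library per group no p-value is given.

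Peaks were taken as deposited, with starts counted from 1. Lists were merged into regions by an overlap of at least 1 bp, and a library held a region when one of its peaks met it. Intervals are exact Poisson (numbers of regions) and exact binomial (ratios of 2 rates) 95% intervals. For the ratio of the γδ mean to DP a normal approximation on the log scale was used. Named regions were those held by all 5 libraries, the 5 highest of each library, and the 3 highest on each side of each comparison made. Alternatives were equal-length lists of 33155 peaks with ties at the edge broken by genome order or left out, the upper 50% by score, no peaks of 30 bp or less, joining within 150 bp or 1 kb, peaks in place of regions, the gene extent alone, a window wider by 50 kb on each side, autosomes only, a reciprocal overlap of 50% and peak centres within 200 bp. Leaving out the largest cluster, the last cluster or the SOX13lo library was added after seeing the data. The locus, its window and these settings were chosen with earlier results of these data known. Other genes of the pathway were not analysed here, since the gene table at hand is of GRCm38. It was used for gene order only, and promoter sequences are RefSeq's on GRCm38.p6. Functions were checked on simulated lists. Python 3.11.15 was used with scipy 1.17.1 for the intervals, pandas 2.3.3 and numpy 2.4.6 for the tables and matplotlib 3.10.9 for the plots.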

Additional observations from a re-analysis of the deposited data

Results flagged for a closer look

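The ratio of transgenic to non-transgenic rates of Lef1 locus regions lay on opposite sides of 1 in the 2 fractions. The rate was 1.17 times as high in Sox13tg SOX13hi as in SOX13hi, and 0.576 times as high in Sox13tg SOX13lo as in SOX13lo. Both counting intervals included 1 (0.529 to 2.70 and 0.244 to 1.21), so no opposite movement is shown. The locus was chosen for few regions in SOX13hi relative to SOX13lo, and these 2 libraries are the references here. Ratios on opposite sides of 1 are therefore no test of the transgene. The difference between the fractions was not tested, since each group has 1 library, and the first ratio lay below 1 in 2 of 12 other settings.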

How the results depend on the processing

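No paired analysis was possible because each group has 1 library and no result comes from a test. Over 61 recomputed ratios none left the counting interval of its main value. These intervals are wide and the settings reuse the same peaks, so staying inside them is no evidence of stability. The locus was chosen for a low ratio of SOX13hi to SOX13lo, so the direction of that ratio over the settings is no test of it. This ratio stayed below 1 in all 12 (0.423 to 0.744), that of Sox13tg SOX13lo to SOX13lo in all 12 (0.468 to 0.808) and that of the γδ mean to DP in all 13 (0.456 to 0.668). The choice favoured a high count in SOX13lo, so the direction of the Sox13tg SOX13lo ratio is no test either. With peaks joined within 1 kb the interval of the γδ ratio included 1 (0.366 to 1.1). The ratio of Sox13tg SOX13hi to Sox13tg SOX13lo ran from 0.774 to 1.22, and that of Sox13tg SOX13hi to SOX13hi from 0.856 to 1.46, so neither kept a direction. Of 60 recomputed rates per 1000 regions, 9 left the interval of the main value. With peaks joined within 1 kb the rate was 0.357 in SOX13lo and 0.475 in DP, and without the largest cluster 0.341 in SOX13lo and 0.462 in DP. It was 0.453 in DP for the gene extent alone, and in the wider window 0.527 in Sox13tg SOX13hi, 0.477 in SOX13hi, 0.868 in SOX13lo and 0.898 in DP. These windows differ in length by construction. Of 40 median percentiles of locus peaks 11 moved, all of them upward. Leaving out low-scoring peaks removes the lower values by construction, and for narrow peaks the cause was not tested. In equal-length lists they were 71.0 in Sox13tg SOX13hi, 80.6 in SOX13hi (within the interval of its main value), 74.8 in SOX13lo and 82.0 in DP, and with ties left out 71.0, 80.6, 75.4 and 82.0, in the same order. In the upper 50% they were 71.0 in Sox13tg SOX13hi and 72.8 in SOX13lo and in DP, and without peaks of 30 bp or less 65.3 in SOX13lo and 63.2 in DP. With a reciprocal overlap of 50%, 2 of the 14 SOX13hi peaks met a SOX13lo peak, against 13 with 1 bp, and with centres within 200 bp 12 did. Counts of 9 to 17 regions in 3 of the libraries and the unknown read depth limit what can be told apart.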
